A study of Mus musculus with 48 samples.

Results

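Livers of 3 mice kept on a low energy diet of 60% protein, 20% carbohydrate and 20% fat were compared with livers of 3 mice kept on a high energy diet of the same composition. The 6 mice were chosen by their diet label and are part of 48 mice on 20 diets measured in the study. All mice ate 1 of 25 diets freely from 3 weeks of age, were housed 3 per cage and were killed at 15 months. Total liver RNA of each mouse was hybridised to 1 Affymetrix array. The composition is written protein/carbohydrate/fat below. Strain is not stated in the labels, and the sex of single mice is not either, although the design used males and females. No mouse on medium energy at 60/20/20 was analysed here. Low and high energy were also available at 42/29/29, with 1 mouse each, and at 23/38/38, with 1 low and 3 high energy mice.

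The liver turns cholesterol into bile acids, chiefly through an enzyme step that bile acids themselves shut off through the nuclear receptor FXR and its target SHP. It burns fatty acids in mitochondria and peroxisomes under control of PPAR alpha, and makes them from carbohydrate under control of ChREBP and SREBP-1c. It is also the main source of circulating insulin-like growth factor 1, which growth hormone induces through its receptor and STAT5. Stress programmes for amino acid shortage, protein folding, oxidants and inflammation each leave a known set of transcripts in this tissue.

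Markers of the labelled tissue were strongly expressed in all 6 livers. The summed linear level of 9 hepatocyte markers was 36157 to 37889 in the low energy livers, against 36067 to 37299 in the high energy livers. The interquartile range of all probe set values on an array, which measures how far apart weak and strong signals lie, was 3.19, 2.88 and 3.03 log2 units in low energy replicates 1, 2 and 3, against 3.29, 3.43 and 3.12 in the high energy replicates. Low energy replicates 2 and 3 ranked 4 and 9 from the smallest of 48 arrays and replicate 1 ranked 16, while the high energy arrays ranked 24, 35 and 13. The mean was 3.03 ± 0.16 in low energy and 3.28 ± 0.16 in high energy (SD, n = 3 each), a difference of -0.25 with an exact two-sided permutation p of 0.2, where 3 against 3 cannot go below 0.1. Low energy replicate 2 stood apart: its mean correlation with the other arrays was 0.948, and it held the lowest of 48 values for 908 of 16926 genes (5.365%), against 1.353% and 1.436% for low energy replicates 1 and 3. Y-linked genes exceeded Xist in low energy replicates 1 and 2 and in high energy replicates 1 and 3, so each group held 2 mice of that pattern and 1 of the opposite pattern.

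**Figure D1:**
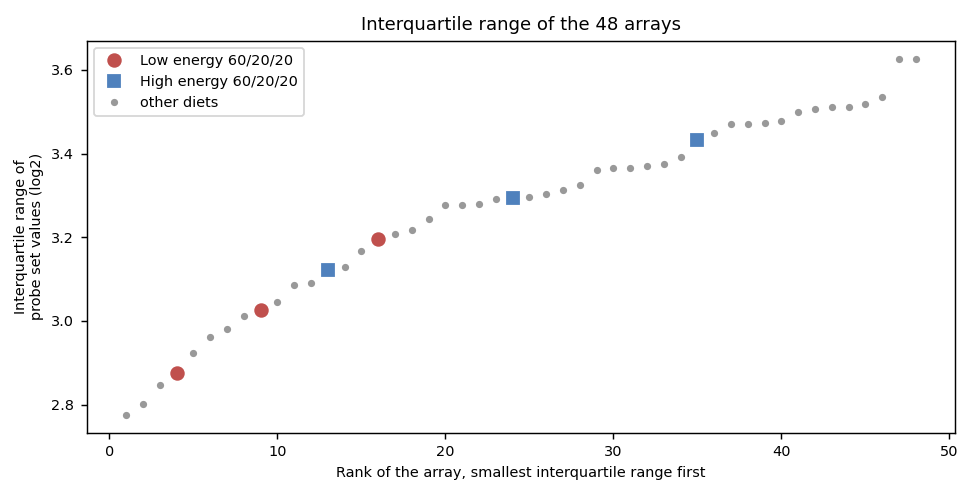
Interquartile range of the probe set values on each of the 48 arrays (log2 units, vertical axis) against its rank from the smallest (horizontal axis). Low energy 60/20/20 arrays are red circles at ranks 4, 9 and 16, high energy 60/20/20 arrays are blue squares at ranks 13, 24 and 35, and grey points are the other diets.

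No gene passed the test between low and high energy at 60/20/20. Of 16926 genes tested with limma, 0 (0%) had an adjusted p below 0.05, and the smallest adjusted p was 0.153. An unadjusted p below 0.05 was reached by 1710 genes (10.1%), of which 683 (4.04%) lay higher and 1027 (6.07%) lay lower in low energy. The values of the 3 low energy livers lay wholly above those of the 3 high energy livers for 949 genes (5.61%) and wholly below for 1227 genes (7.25%). Without low energy replicate 1 these shares were 11.2% and 15.2%, and without replicate 2 they were 9.75% and 10%. The median difference over all genes was -0.03. All differences below are low minus high energy on the log2 scale with the standard error (SE) of the fit, and none of the genes named in this contrast passed the adjusted threshold. Scaling every array to the same median and interquartile range lifted strongly expressed genes in low energy: the median of the 9 hepatocyte markers was -0.06 as deposited and 0.77 after it. That scaling is called equal array spread below, and it turned the sign of 16 of the genes named here, among them Cyp27a1, Slc10a1, Hnf4a, Cat, Abcd3, Creb3l3, Cyp4f14, Dgat2, Elovl5, Igf1 and Gpt2. In whole liver, fewer cells of a type and less RNA per cell cannot be told apart.

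The 4 bile acid genes with the smallest p were the enzymes Cyp7a1 and Cyp8b1, the receptor gene Nr1h4 and the repressor gene Nr0b2. Cyp7a1, the rate-limiting enzyme of bile acid synthesis, had log2 levels of 6.17, 6.43 and 5.48 in the low energy livers, against 8.40, 6.81 and 8.48 in the high energy livers. All 3 low energy values lay below all 3 high energy values, and high energy replicate 2 was the nearest to them. The difference was -1.87 (SE 0.59, 95% interval -3.08 to -0.66, unadjusted p = 0.00346, adjusted p = 0.376), a level 3.65-fold higher in high energy. Cyp8b1, which sets the share of cholic acid, stood at 7.63, 9.03 and 7.75 in low energy and at 9.89, 9.08 and 9.71 in high energy. Its groups did not overlap, although low energy replicate 2 lay just below high energy replicate 2, and the difference was -1.42 (SE 0.57, adjusted p = 0.438). The other enzymes did not show this. Cyp27a1, which opens the alternative route, stood at 10.14, 9.79 and 9.62 in low energy and at 10.52, 9.97 and 10.09 in high energy, with a difference of -0.35 (SE 0.24). Cyp7b1, the next enzyme of that route, stood between 6.84 and 9.09 in low energy and reached 11.02 in high energy, with overlap (difference -1.09, SE 1.14). Over the 16 synthesis genes tested, 2 were lower without overlap and 0 higher, against 7.25% and 5.61% of all genes, and their median difference was -0.07, against -0.03 over all genes, and 0.33 with equal array spread. It was -0.14 without low energy replicate 1 and -0.16 without replicate 2.

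Nr0b2 encodes SHP, the repressor that bile acids induce. It had levels of 7.61, 6.99 and 8.04 in low energy and 6.74, 6.44 and 6.39 in high energy, so that every low energy liver was above every high energy liver (difference 1.02, SE 0.34, 2.03-fold, adjusted p = 0.393). Nr1h4 encodes FXR, the bile acid receptor that induces Nr0b2. Its levels were 7.78, 7.71 and 7.96 in low energy, against 8.31, 8.51 and 8.67 in high energy, the opposite order (difference -0.68, SE 0.20, adjusted p = 0.32). Abcg8, a subunit of the sterol exporter into bile, stood at 8.02, 8.35 and 8.06 in low energy and 8.77, 8.87 and 8.65 in high energy (difference -0.62, SE 0.28). The bile acid importer Slc10a1 was also lower in low energy without overlap (difference -0.52, SE 0.28), whereas the exporter Abcb11 was at 10.62, 10.24 and 10.64 in low energy and at 10.46, 10.28 and 10.07 in high energy (difference 0.23, SE 0.16). Hnf4a, a liver transcription factor that drives Cyp7a1 and Cyp8b1, overlapped between the groups (difference -0.53, SE 0.30). Of 20 transport and FXR genes tested, 1 was higher and 3 were lower without overlap, against 5.61% and 7.25% of all genes. The median difference was -0.11, or -0.08 after quantile normalisation. It was 0.47 with equal array spread and 0.05 with a term for the interquartile range of the array.

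The windows upstream of Cyp8b1 and Nr0b2 are shown because both genes are textbook targets of LRH-1, the nuclear receptor that SHP blocks, and their levels lay in opposite directions here. Each is the 250 bases before the RefSeq gene start (GRCm38.p6), with capitals marking the letters CAAGG, the core of an LRH-1 site, searched on both strands.
Cyp8b1, chr9:121916306-121916555, minus strand: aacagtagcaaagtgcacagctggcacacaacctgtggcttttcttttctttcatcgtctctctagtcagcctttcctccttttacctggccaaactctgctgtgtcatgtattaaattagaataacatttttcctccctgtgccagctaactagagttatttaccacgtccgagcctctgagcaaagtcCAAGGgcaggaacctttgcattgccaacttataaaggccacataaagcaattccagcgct
Nr0b2, chr4:133553126-133553375, plus strand: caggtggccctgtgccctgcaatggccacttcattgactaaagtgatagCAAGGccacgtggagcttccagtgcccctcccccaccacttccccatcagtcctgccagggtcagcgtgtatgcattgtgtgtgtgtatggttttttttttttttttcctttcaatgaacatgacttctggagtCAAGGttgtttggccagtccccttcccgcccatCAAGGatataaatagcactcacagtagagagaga
Cyp8b1 held 1 match, starting 60 bases before the gene start, and Nr0b2 held 3, starting 201, 67 and 34 bases before it. The same letters occur in 46% of the 32851 windows of this length in the RefSeq table, so a match is a description of the sequence only. Cyp7a1 and Socs2 are named without a window.

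Fatty acid oxidation genes showed small differences of both signs. In mitochondria, Cpt1a, the carnitine transferase that admits fatty acids, stood at 10.22, 9.66 and 9.74 in low energy and at 10.70, 11.09 and 9.81 in high energy. High energy replicate 3 lay below low energy replicate 1, and the difference was -0.66 (SE 0.34, unadjusted p = 0.0627). Etfb, a subunit of the flavoprotein that takes electrons from the acyl-CoA dehydrogenases, was higher in low energy, at 10.07, 10.09 and 10.04 against 9.53, 9.61 and 9.95 (difference 0.37, SE 0.18). Acadvl, the very long chain acyl-CoA dehydrogenase, was also higher without overlap (difference 0.21, SE 0.12). Of 19 mitochondrial genes, 2 were higher and 0 lower without overlap, against 5.61% and 7.25% of all genes. The median difference was -0.14, or -0.07 after quantile normalisation and 0.47 with equal array spread. Without low energy replicate 1 the median was 0.02, with 5 higher and 2 lower without overlap, against 11.2% and 15.2% of all genes.

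In peroxisomes and the omega oxidation pathway, 3 of 17 genes were lower and 1 was higher without overlap, against 7.25% and 5.61% of all genes. The median was -0.28, or -0.25 after quantile normalisation and 0.25 with equal array spread. Catalase (Cat) stood at 12.44, 12.16 and 12.39 in low energy and 12.58, 12.58 and 12.67 in high energy (difference -0.28, SE 0.15). Cyp4f14, a fatty acid omega hydroxylase, had a difference of -0.46 (SE 0.27), and Abcd3, a peroxisomal fatty acid transporter, of -0.26 (SE 0.17). Ppara, the receptor that induces many of these genes, stood at 7.03, 7.21 and 6.98 in low energy, against 7.93, 8.28 and 7.16 in high energy. Low energy replicate 2 just exceeded high energy replicate 3, and the difference was -0.72 (SE 0.36, unadjusted p = 0.0561). When the fit held a term for the interquartile range of the array, called the array term below, it was -0.28. Creb3l3, a liver transcription factor active with PPAR alpha in fasting, was lower without overlap (difference -0.27, SE 0.13). Fgf21, the fasting hormone induced by PPAR alpha and by protein shortage, ran from 2.71 to 5.38 in low energy and from 4.13 to 6.45 in high energy (difference -0.93, SE 0.73). Pdk4, which spares glucose during fat oxidation, ran from 5.47 to 7.20 and from 4.98 to 7.78 (difference 0.16, SE 0.79). Over 18 PPAR alpha and fasting regulators the median was -0.27, or -0.23 after quantile normalisation and 0.30 with equal array spread. Without overlap, 1 was lower and 0 were higher, against 7.25% and 5.61% of all genes.

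Fatty acid synthesis genes lay lower in low energy in 15 of 20 cases as deposited, as did 9160 of all 16926 genes. Of the 20 genes, 6 lay lower with an unadjusted limma p below 0.05, against 6.07% of all genes. Without overlap, 3 were lower and 0 higher, against 7.25% and 5.61% of all genes. The list median was -0.29, or -0.26 after quantile normalisation and 0.20 with equal array spread. Elovl6, which elongates palmitate, had levels of 8.04, 6.06 and 7.29 in low energy and 8.05, 8.69 and 8.92 in high energy. The groups did not overlap, but low energy replicate 1 lay just below high energy replicate 1, and the difference was -1.42 (SE 0.57, adjusted p = 0.438). Mlxipl encodes ChREBP, the carbohydrate sensing factor. It stood at 7.16, 7.22 and 7.78 in low energy, against 8.79, 9.05 and 7.73 in high energy, with a difference of -1.14 (SE 0.46) that was -0.63 with the array term. Fads2, a desaturase of polyunsaturated fats, differed by -0.80 (SE 0.35), the elongase Elovl5 by -0.54 (SE 0.24) and Dgat2, which completes triglycerides, by -0.41 (SE 0.18). Dgat2 did not overlap between the groups, while Fads2 and Elovl5 did. The central enzymes differed less: Fasn by -0.21 (SE 0.65) and Scd1 by -0.36 (SE 0.36), and their regulator Srebf1 by -0.17 (SE 0.32). Low energy replicate 2 had the lowest Fasn of the 6 livers, 7.77, against 9.60 and 8.94 in replicates 1 and 3. The list median was -0.13 without that replicate and -0.52 without replicate 1.

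Cholesterol synthesis and uptake lay the other way, with 15 of 19 genes higher in low energy, as were 7766 of all 16926 genes. The list median was 0.40, but all 19 overlapped. Sqle, a committed step of sterol synthesis, stood at 9.25, 7.19 and 7.16 in low energy and 6.33, 5.76 and 7.96 in high energy. Low energy replicate 1 held the highest Sqle value of all 48 mice, and high energy replicate 3 was above the other 2 low energy livers (difference 1.18, SE 0.72). Cyp51 differed by 0.84 (SE 0.52), Hmgcs1 by 0.74 (SE 0.48) and the sterol sensor partner Insig1 by 0.48 (SE 0.26). The list median was 0.10 without low energy replicate 1 and 0.66 without replicate 2. Apoa5, a liver protein that promotes triglyceride clearance, was at 8.98, 10.45 and 10.58 in low energy and 10.84, 10.84 and 10.56 in high energy (difference -0.74, SE 0.23, unadjusted p = 0.00314, adjusted p = 0.365). Without low energy replicate 1 it was -0.23.

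In the growth hormone and insulin-like growth factor axis the lead difference was in Socs2, a feedback inhibitor of growth hormone signalling that STAT5 induces. Its levels were 4.18, 1.92 and 4.32 in low energy and 6.55, 6.96 and 6.39 in high energy. Every low energy liver was more than 2 log2 units below every high energy liver, and replicate 2 was also below the lowest of the 42 mice on other diets, 2.02. The difference was -3.16 (SE 0.80, 95% interval -4.79 to -1.53, unadjusted p = 0.000388, adjusted p = 0.228), or 8.96-fold higher in high energy. It was -2.39 without low energy replicate 2 and -2.77 with the array term. Ghr, the growth hormone receptor, had levels of 7.81, 7.70 and 7.72 in low energy against 8.45, 7.93 and 8.20 in high energy, with no overlap (difference -0.45, SE 0.20, adjusted p = 0.467). Onecut1, a liver factor that growth hormone induces, stood at 5.26, 3.31 and 3.58 in low energy and at 8.31, 7.38 and 4.81 in high energy (difference -2.78, SE 1.04), and was -1.70 with the array term. Outside the gene list of this axis, Lifr, the leukaemia inhibitory factor receptor, lay at 8.91, 8.98 and 8.97 in low energy, against 10.38, 9.53 and 9.58 in high energy (difference -0.88, SE 0.29, adjusted p = 0.395).

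The hormone and its binding proteins differed less than Socs2. Igf1 stood at 8.76, 8.58 and 8.65 in low energy and 9.37, 9.06 and 8.72 in high energy. High energy replicate 3 lay just below low energy replicate 1, and the difference was -0.38 (SE 0.19, unadjusted p = 0.0555, adjusted p = 0.503). Igfals, which holds Igf1 in its circulating complex, differed by -0.49 (SE 0.30) with overlap. Igfbp5, a binding protein, was lower without overlap (2.22, 2.97 and 2.41 in low energy, 3.37, 4.53 and 3.59 in high energy, difference -1.30, SE 0.54). Igfbp1, which insulin represses, was at 10.72, 9.99 and 9.85 in low energy and at 9.55, 10.30 and 7.43 in high energy (difference 1.09, SE 0.74), and Igfbp2 overlapped fully (difference 0.17, SE 0.32). Of the 21 genes of the axis, 17 lay lower, as did 9160 of all 16926 genes, and 3 were lower without overlap, against 7.25% of all genes. Without low energy replicate 1, 8 were lower without overlap, against 15.2% of all genes. Their median was -0.38 as deposited, -0.28 after quantile normalisation, -0.09 with the array term and -0.02 with equal array spread.

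**Figure D2:**
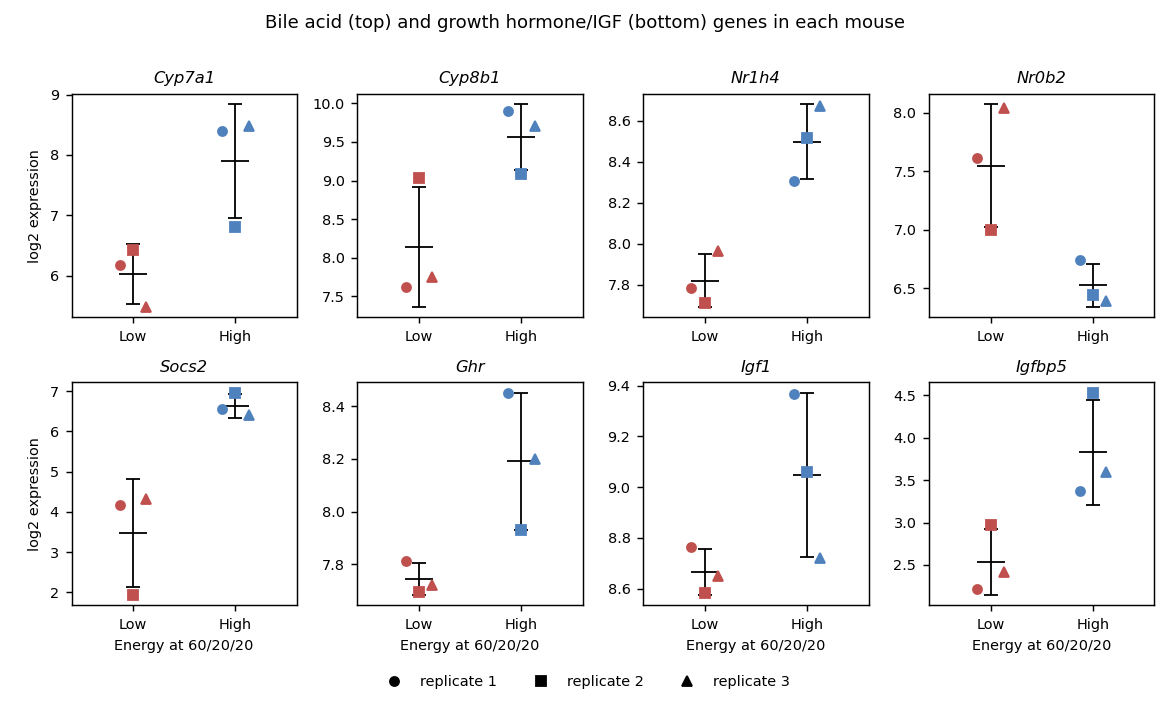
Log2 expression (vertical axes) of 4 bile acid genes (top) and 4 growth hormone and insulin-like growth factor genes (bottom) in each low energy (left, red) and high energy (right, blue) mouse at 60/20/20. Marker shape is the replicate, and black bars are the mean and SD. Igf1 alone overlaps between the groups, and its sign turns with equal array spread. Nr0b2 is higher in low energy, and the other 6 are lower.

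Among 22 insulin signalling and gluconeogenesis genes the median was -0.25, against -0.23 after quantile normalisation, 0.02 with the array term and 0.18 with equal array spread. Gys2, the liver glycogen synthase, had levels of 9.04, 8.97 and 8.67 in low energy and 9.34, 9.53 and 9.68 in high energy, with no overlap (difference -0.62, SE 0.21, unadjusted p = 0.00635, adjusted p = 0.408). The gluconeogenic enzymes Pck1 (difference -0.01, SE 0.16) and G6pc (difference -0.28, SE 0.41) overlapped. Pck1 spanned 12.19 to 12.52 in low energy and 12.14 to 12.56 in high energy.

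Growth hormone also shapes the male pattern of liver expression, and this pattern was followed in the mice whose Y-linked genes exceeded Xist, 2 in each group. Hsd3b5, a steroid dehydrogenase of male liver, had levels of 1.37 and 4.29 in the low energy mice of that pattern, against 9.08 and 7.09 in the high energy mice. In the mouse of the opposite pattern it was 1.02 in low energy and 1.05 in high energy. Elovl3, a male-biased elongase, was at 8.13 and 9.47 in low energy and 11.84 and 10.60 in high energy within the Y pattern. Both low energy mice thus lay below both high energy mice for each gene. Of 24 genes known to be higher in male liver, 12 behaved in this way and 0 in the opposite way, where 17.9% and 12.9% of all genes did. The list median within that pattern was -1.31, against -0.05 over all genes, and -0.04 in the single pair of mice of the opposite pattern. Of 23 genes known to be higher in female liver, 5 were higher and 2 lower in low energy without overlap within the Y pattern. The shares of all genes were 12.9% and 17.9%. The median of the female list within that pattern was 0.11. Cyp2b9, a female-biased cytochrome, was at 9.43 and 9.15 in low energy and at 5.18 and 9.04 in high energy there. The pooled test over all 6 mice gave -3.52 (SE 2.43, adjusted p = 0.622) for Hsd3b5, since its spread between patterns is wide. With 2 mice per group no exact test of this pattern can reach p below 0.05.

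Stress genes did not share a direction. The ATF4 targets that answer amino acid shortage had a median of 0.04 over 26 genes, or -0.01 without low energy replicate 1, with 0 higher and 1 lower without overlap, against 5.61% and 7.25% of all genes. Atf4 itself stood at 6.68, 6.47 and 6.82 in low energy and 6.35, 6.34 and 6.62 in high energy (difference 0.22, SE 0.17). Asparagine synthetase (Asns) overlapped fully (difference -0.29, SE 1.14), as did Trib3 (difference -0.29, SE 0.58). The death-linked factor Ddit3 differed by 0.59 (SE 0.35), Ddit4, an inhibitor of mTORC1, by 1.49 (SE 0.77), and the mitochondrial stress factor Atf5 by -0.59 (SE 0.29), each with overlap.

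Protein folding genes of the endoplasmic reticulum lay higher in low energy in 19 of 25 cases, as did 7766 of all 16926 genes, with a median of 0.10. Without overlap, 3 were higher and 0 lower, against 5.61% and 7.25% of all genes. The sign of the median rested on low energy replicate 1. Without that liver the median was -0.09, with 3 higher and 3 lower without overlap, against 11.2% and 15.2% of all genes. Selenos, a selenoprotein of the degradation complex, had levels of 8.64, 8.47 and 8.38 in low energy and 7.62, 7.22 and 8.12 in high energy, without overlap (difference 0.84, SE 0.37, adjusted p = 0.461). The co-chaperone Dnajb9 was also higher without overlap (difference 0.73, SE 0.39), and the chaperone Hspa5 was higher with overlap (difference 0.45, SE 0.26). Among 17 heat shock genes, 3 were higher and 1 lower without overlap, against 5.61% and 7.25% of all genes. The inducible chaperone Hspa1b stood at 4.90, 5.66 and 5.46 in low energy and 4.72, 3.37 and 2.31 in high energy (difference 1.87, SE 0.87), whereas the small heat shock protein Hspb1 lay at 3.96, 2.48 and 3.64 in low energy and 4.19, 4.66 and 4.54 in high energy (difference -1.11, SE 0.49).

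The largest positive differences of the oxidative stress list, which had a median of 0.15 over 23 genes, were in the metallothioneins, metal-binding proteins that zinc and glucocorticoids induce. Mt2 had levels of 11.63, 10.06 and 10.38 in low energy and 6.93, 10.27 and 6.43 in high energy. Mt1 had levels of 9.72, 9.20 and 9.11 in low energy and 6.74, 9.36 and 6.49 in high energy. High energy replicate 2 was at the low energy level for both genes, while high energy replicates 1 and 3 were lower by more than 2 log2 units. The difference was 2.81 (SE 1.13, adjusted p = 0.438) for Mt2 and 1.81 (SE 0.77, adjusted p = 0.451) for Mt1. Gclc, which limits glutathione synthesis, was higher without overlap by 0.38 (SE 0.26), and Nqo1, an NRF2 target, overlapped (difference 0.67, SE 0.50). The cell cycle inhibitor Cdkn1a was 9.12 in low energy replicate 1, with 6.37 and 6.63 in the other low energy livers and 6.44, 7.85 and 5.66 in high energy (difference 0.73, 95% interval -1.32 to 2.77).

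Acute phase genes, which the liver secretes in inflammation, were higher without overlap in 8 of 24 cases and lower in 1. Of all genes, 5.61% were higher and 7.25% lower in this way. The 1 lower gene was Hamp (difference -3.51), described below with the iron genes, where low energy replicate 1 stood apart. Apcs, serum amyloid P, had levels of 10.76, 8.64 and 8.60 in low energy and 6.72, 7.37 and 8.27 in high energy (difference 1.88, SE 0.57, unadjusted p = 0.00241, adjusted p = 0.351). Lcn2, the iron-binding lipocalin, stood at 9.35, 6.49 and 6.99 in low energy and 5.55, 6.00 and 4.95 in high energy (difference 2.11, SE 0.96). The fibrinogen chain Fga differed by 0.28 (SE 0.13) without overlap and haemopexin (Hpx) by 0.47 (SE 0.20) with overlap. The list median was 0.33, with 0.16 left when low energy replicate 1 was removed. Then 9 genes were higher and 3 lower without overlap, against 11.2% and 15.2% of all genes. Of 8 neutrophil markers, 8 lay higher in low energy, but 1 did so without overlap, against 5.61% of all genes. Centred on the mean of all 48 mice, their list mean was 0.84, -0.17 and -0.13 in low energy and -0.32, -0.25 and -0.14 in high energy. Low energy replicate 1 alone thus stood apart. Their summed linear level was 21.6 to 46.4 in low energy and 19.0 to 21.7 in high energy. So small a sum over 8 genes in high energy puts most of them near the testing cut-off of 1.17 log2 units. Their median difference was 0.39, and 0.09 without low energy replicate 1. Macrophage markers summed to 882 to 1558 in low energy and 1210 to 1314 in high energy, with 5 of 15 higher. Their part in the result was not tested.

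Clock genes had the lowest median of the lists in the plot of list medians, -0.50 over 18 genes. It was -0.23 with the array term, -0.42 after quantile normalisation and -0.43 with equal array spread. Without overlap, 4 of them were lower and 1 was higher, against 7.25% and 5.61% of all genes. The repressor Cry2 stood at 5.15, 4.91 and 5.04 in low energy and 5.95, 5.81 and 5.96 in high energy (difference -0.87, SE 0.46). Per1 (difference -0.73, SE 0.44) and Nr1d1, which encodes the repressor REV-ERB alpha (difference -1.04, SE 0.73), were also lower without overlap. Dbp, an output factor, ran from 4.84 to 5.76 in low energy and from 4.85 to 8.46 in high energy (difference -1.21, SE 1.19), Bhlhe41 differed by -1.01 (SE 0.46), and Arntl, the positive clock arm, overlapped (difference 0.37, SE 0.65). The hour of death of each mouse is not in the labels, so a difference of hour and a difference of energy cannot be told apart.

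Several smaller groups had single members with low p. Ifit1, an interferon-induced gene, stood at 3.33, 2.86 and 3.37 in low energy and 4.52, 4.54 and 4.66 in high energy (difference -1.38, SE 0.39, adjusted p = 0.304), and 3 of 16 interferon genes were lower and 1 was higher without overlap, against 7.25% and 5.61% of all genes. Plk1, a mitotic kinase, was at 4.53, 3.71 and 2.89 in low energy and 2.17, 2.02 and 2.41 in high energy (difference 1.51, SE 0.41, adjusted p = 0.295). The cell cycle list had a median of 0.45, which was 0.00 without low energy replicate 1. Cytosolic ribosomal proteins were higher in 29 of 34 cases, as were 7766 of all 16926 genes. Without overlap 6 were higher, against 5.61% of all genes. Centred on the mean of all 48 mice, their list mean was 0.04, 0.20 and 0.15 in low energy and -0.33, -0.42 and 0.21 in high energy. High energy replicate 3 thus lay with the low energy livers. The median difference of these proteins was 0.28, or 0.14 with the array term and 0.82 with equal array spread. Among them Rpl13 differed by 0.61 (SE 0.21) and Rps19 by 0.72 (SE 0.31). Proteasome subunits were higher in 26 of 29 cases, led by Psma2 (difference 0.53, SE 0.22), and 2 were so without overlap, against 5.61% of all genes. The list median was 0.21, or 0.03 with the array term and 0.26 after quantile normalisation. High energy replicate 3 again lay with the low energy livers: the centred list mean was 0.14, 0.27 and 0.20 in low energy and -0.15, -0.24 and 0.24 in high energy. Xenobiotic genes had a median of 0.23, or 0.39 without low energy replicate 1. The bile acid and drug hydroxylase Cyp3a11 was higher without overlap (10.38, 9.32 and 9.77 in low energy, 8.81, 9.02 and 9.11 in high energy, difference 0.84, SE 0.42), Cyp2c55 differed by 1.93 (SE 0.88) and Cyp2b10 overlapped widely (difference 0.67, SE 2.10).

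Amino acid catabolism had a median of 0.01 over 45 genes, or -0.06 with the array term, with 0 higher and 4 lower without overlap, against 5.61% and 7.25% of all genes. The count of 0 higher rested on low energy replicate 1. Without that liver the median was 0.09, with 13 higher and 7 lower without overlap, against 11.2% and 15.2% of all genes. Kynu, kynureninase of tryptophan breakdown, stood at 8.45, 8.51 and 9.01 in low energy and 9.71, 9.38 and 9.37 in high energy (difference -0.83, SE 0.20, unadjusted p = 0.000183, adjusted p = 0.166). The transaminases Gpt2 (difference -0.47, SE 0.23) and Bcat2 (difference -0.63, SE 0.27) also lay lower, Gpt2 without overlap. Bckdk, the kinase that switches off the branched-chain ketoacid dehydrogenase, was among the 10 genes of smallest p. It stood at 6.08, 6.30 and 6.64 in low energy and 7.07, 7.16 and 7.07 in high energy (difference -0.76, SE 0.17, unadjusted p = 8.49e-05, adjusted p = 0.153).

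**Figure D3:**
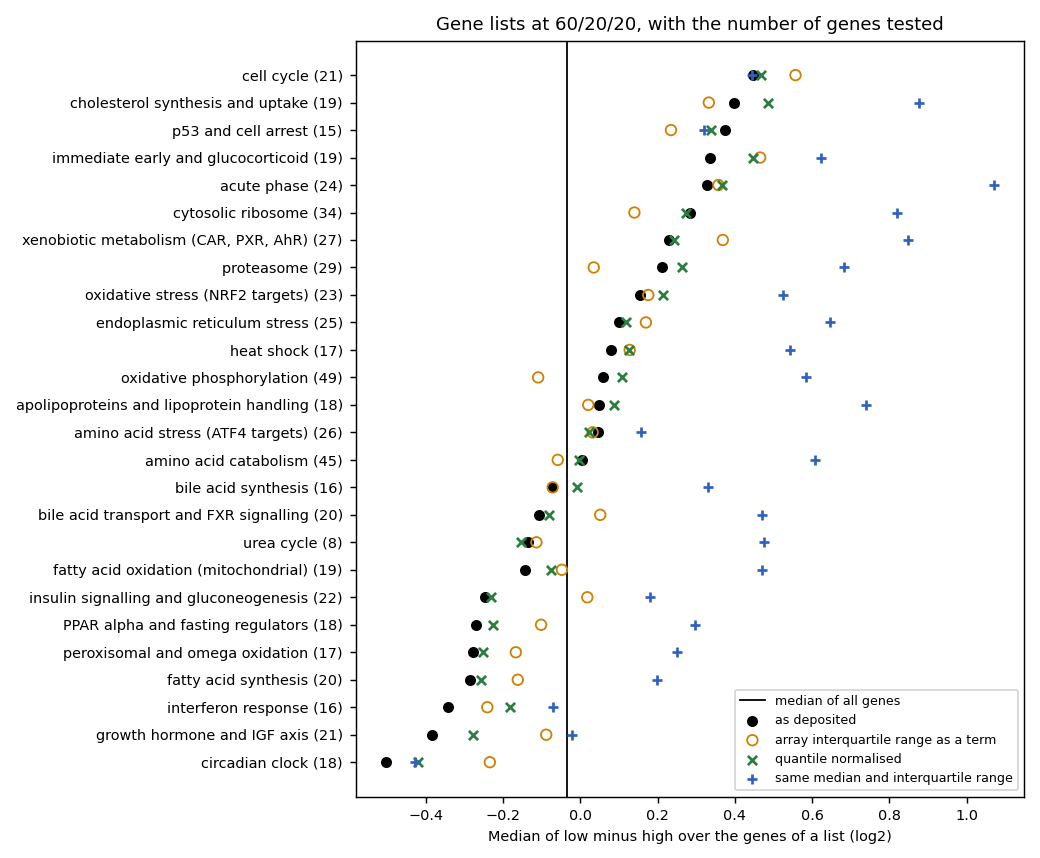
Median of low minus high energy (log2, horizontal axis) over the genes of each list at 60/20/20, with the number of genes tested in brackets. Filled points use the deposited values, open orange points add the array interquartile range as a term, green crosses follow quantile normalisation, blue plus signs follow scaling to the same median and interquartile range, and the line is the median of all genes, -0.03. The growth hormone and clock lists lie lowest as deposited and nearer the line with the array term. The clock list stays at -0.42 with quantile normalisation and -0.43 with the last scaling. With that last scaling 8 lists with a negative median, those of fatty acid, bile acid, PPAR alpha and insulin genes among them, are positive.

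The other 9 genes of smallest p belong to no common list. Rbl2, a retinoblastoma family repressor, stood at 7.28, 7.02 and 7.41 in low energy and 8.15, 7.85 and 7.89 in high energy (difference -0.73, SE 0.17). Zdhhc13, a palmitoyl transferase, differed by -1.23 (SE 0.26), Elac1, a transfer RNA processing nuclease, by -1.61 (SE 0.34), the zinc finger gene Zfp93 by -1.42 (SE 0.32) and Slf1, of DNA repair, by -0.89 (SE 0.20). The protease inhibitor Spink5 (difference -1.08, SE 0.23), the axonemal dynein chain Dnaic2 (difference 0.58, SE 0.12), Ppp1r32 (difference 0.74, SE 0.17) and the microRNA gene Mir3961 (difference 1.40, SE 0.31) had values under 4 log2 units in all 6 livers. All 9 had an adjusted p of 0.153.

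Low energy replicate 1 differed from the other livers in iron genes, which were chosen after their values were seen and are given as a description. Hamp encodes hepcidin, the liver hormone that blocks iron release by degrading ferroportin. It was 2.28 in that liver, with 12.30 and 12.23 in low energy replicates 2 and 3 and 12.33, 12.57 and 12.44 in high energy. The lowest value among the 42 mice on other diets was 5.98 and their median was 12.34. Hamp is induced by bone morphogenetic proteins through SMAD factors, and the same liver held the lowest value of 48 for Bmp6 (2.47), a ligand of that pathway, for Smad9 (2.02), and for the pathway targets Id1 (2.15) and Atoh8 (4.49). It also held the lowest value for the iron exporter ferroportin, Slc40a1 (6.94), and ranked 47 of 48 for the transferrin receptor Tfrc (7.40), which cells raise in iron shortage. Red blood cell markers, of which Tfrc is 1 of 3 tested, summed to 76.4 to 239 in low energy and 54.2 to 104 in high energy. Cxcl14 (8.23) and Tff3 (8.60) were the highest of 48 in this liver, with 3.04 to 4.05 in the other low energy livers and 2.70 to 4.15 in high energy. The Hamp difference of the whole comparison was -3.51 (SE 1.42) with this liver and -0.18 without it.

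The 250 bases before the Hamp gene start are shown because they carry the letters through which that pathway and inflammation are known to act. Capitals mark GGCGCC, the core of the bone morphogenetic protein response element, and TTCNNNGAA, the STAT site, both searched on each strand.
Hamp, chr7:30944030-30944279 (GRCm38.p6), minus strand: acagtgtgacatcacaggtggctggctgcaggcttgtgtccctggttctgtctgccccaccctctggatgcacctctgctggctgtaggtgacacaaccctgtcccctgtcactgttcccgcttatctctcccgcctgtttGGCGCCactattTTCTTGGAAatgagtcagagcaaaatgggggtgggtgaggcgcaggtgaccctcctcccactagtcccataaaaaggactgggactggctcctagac
The window held 1 GGCGCC, starting 109 bases before the gene start, and 1 STAT match, TTCTTGGAA, starting 97 bases before it. GGCGCC occurs in 9.59% and TTCNNNGAA in 7.02% of all RefSeq windows of this length, and no overlap exists between these matches.

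**Figure D4:**
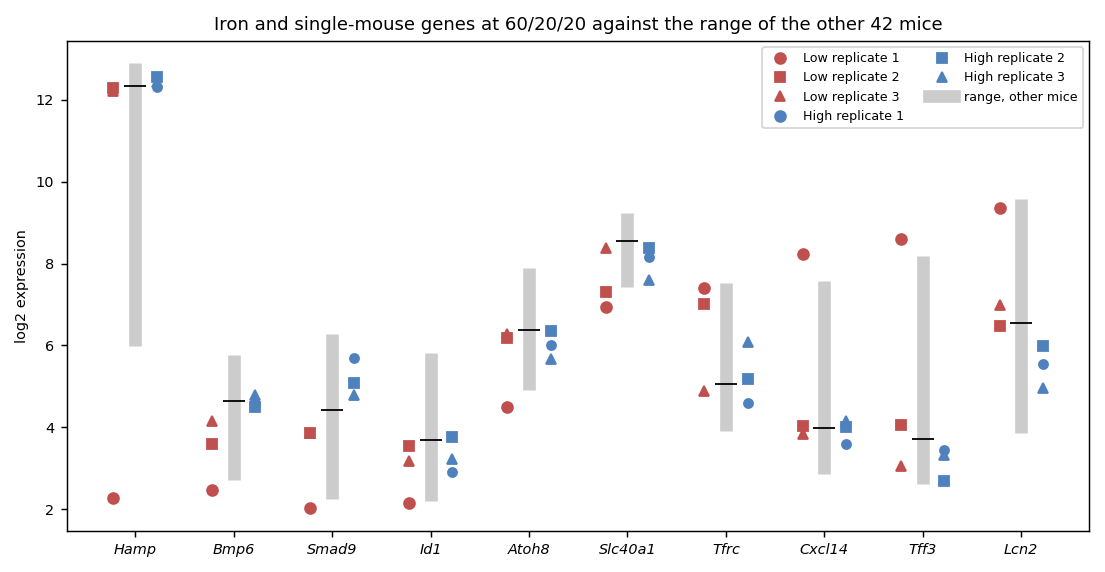
Log2 expression (vertical axis) of iron genes, Cxcl14, Tff3 and Lcn2 in low energy (red, left) and high energy (blue, right) mice at 60/20/20, by replicate. Grey bars span the other 42 mice and black ticks are their median. Low energy replicate 1 (red circles) lies below the grey bar for Hamp, Bmp6, Smad9, Id1, Atoh8 and Slc40a1 and above it for Cxcl14 and Tff3.

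The same contrast at 42/29/29 and 23/38/38 was set against that at 60/20/20. With the mean of those 2 compositions, 17 genes (0.1%) had an adjusted p below 0.05, 13 higher and 4 lower in low energy. The difference between the compositions passed for 13 genes (0.0768%), and 5 genes were in both sets. Without the high energy 42/29/29 mouse, whose array had the smallest interquartile range of 48, only 23/38/38 was left, and 5 genes passed there and 0 in the difference. Both sets of calls use the same mice at 42/29/29 and 23/38/38, so the 5 genes in both are not separate results. At 42/29/29 the low energy mouse had Xist above the Y-linked genes and the high energy mouse the reverse. Energy and sex chromosome pattern therefore cannot be told apart there. At 23/38/38 the low energy mouse and high energy replicate 3 had Xist above the Y-linked genes. High energy replicates 1 and 2 there had the reverse. Socs2 was among the 13 genes of the difference. It was 7.10 in the low energy mouse and 2.02 in the high energy mouse at 42/29/29, and at 23/38/38 it was 7.11 in the low energy mouse, against 4.39, 4.65 and 7.14 in high energy. The difference between the compositions was -6.56 (SE 1.20, adjusted p = 0.0179), and -4.88 (adjusted p = 0.834) without the high energy 42/29/29 mouse. E2f4, a cell cycle repressor, stood at 5.06, 4.56 and 5.27 in low energy at 60/20/20 and 5.83, 5.90 and 5.88 in high energy. It was 6.73 in low and 3.89 in high energy at 42/29/29, and its difference between the compositions was -2.50 (SE 0.37, adjusted p = 0.0014), which was -1.26 (adjusted p = 0.834) without that mouse.

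For bile acid genes the order at the other compositions varied. The low and high energy mice at 42/29/29 also differed in sex chromosome pattern. Cyp7a1 was 8.93 in the low energy mouse and 6.85 in the high energy mouse at 42/29/29, and 8.70 in low energy against a median of 8.71 in high energy at 23/38/38. The difference between the compositions was -2.99 (SE 0.89, adjusted p = 0.111). Nr0b2 was 7.08 in low and 5.10 in high energy at 42/29/29, and 5.90 in low energy against a median of 7.15 in high energy at 23/38/38 (difference between the compositions 0.58, SE 0.50, adjusted p = 0.531).

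**Figure D5:**
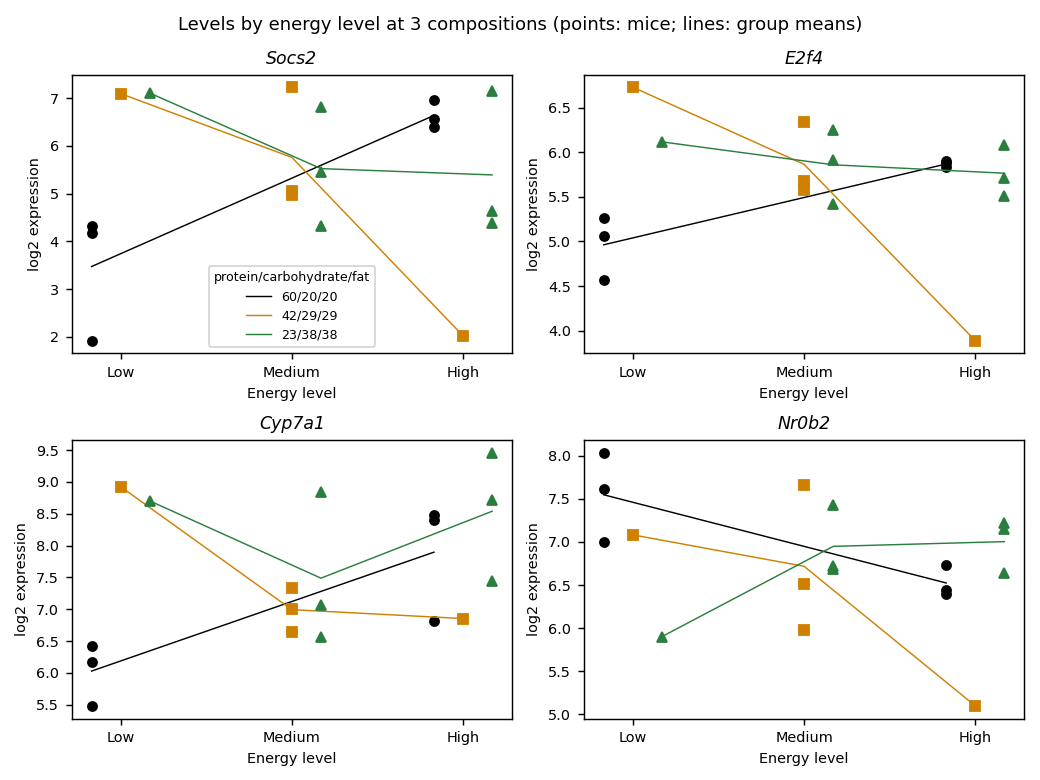
Log2 expression (vertical axes) of Socs2, E2f4, Cyp7a1 and Nr0b2 by energy level (horizontal axes, low to high) at 60/20/20 (black circles), 42/29/29 (orange squares) and 23/38/38 (green triangles). Points are mice and lines join group means. Socs2 and E2f4 are lower in low energy at 60/20/20 and higher in low energy at 42/29/29, where the high energy point is 1 mouse. At 42/29/29 the low energy mouse had Xist above the Y-linked genes and the high energy mouse the reverse.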

How the data were processed

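The values were the authors' deposited log2 expression values for 41345 probe sets on 48 Affymetrix arrays, 1 per mouse. The log2 scale was read from their range, -0.51 to 13.42. How background and arrays were corrected, and with which software, is not given in the sources used here. The number of arrays limits the precision. Probe sets with 1 symbol in the platform annotation (23521) were used, those with several symbols (1814) or no entry (16010) were not, and the probe set of highest mean stood for each of 22180 genes. A gene was tested where its mean exceeded 1.17, the 30th percentile over probe set means, which left 16926.

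A mean for each of 20 diet groups was fitted over all 48 mice with limma 3.58.1 in R 4.3.3 (moderated variance with a trend, two-sided, Benjamini-Hochberg adjustment, threshold 0.05). Groups came from the diet labels, and replicate numbers follow the order of deposit and pair nothing. No 2 arrays were identical, and correlations were similar within groups (median r 0.968) and between groups (0.967). Named were the 10 genes of smallest p, since none passed, per list up to 5 genes of smallest p, and a set of 42 genes taken whatever their p, of which 37 were tested. The others of that set were not analysed here. Also named were genes picked by hand for the sex pattern, Elovl3 and Cyp2b9 among them, and genes passing in the difference between compositions. Iron genes and genes apart in 1 mouse were added after their values were seen. Members and lists were chosen with earlier results of these data known. The fit was tested on simulated data. The alternatives used other filters, averaged probe sets, other scalings, array weights, other variance priors, terms for array spread and for Y-linked genes against Xist, and fewer mice. Other tables used Python 3.11.15 with pandas 2.3.3, numpy 2.4.6 and scipy 1.17.1, and sequences are from RefSeq (GRCm38.p6).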

Additional observations from a re-analysis of the deposited data

Results flagged for a closer look

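The difference between low and high energy at 60/20/20 minus the mean of that difference at 42/29/29 and 23/38/38 passed the limma test for 13 genes. It was negative for Socs2 (-6.56), Slc35a4 (-3.62), Gm17753 (-3.55), Prr5 (-2.68), E2f4 (-2.50), B4galt1 (-2.36) and B4galnt1 (-2.14). It was positive for Rec114 (2.92), Gm11127 (1.57), Asb17 (1.35), Vgf (1.30), Lmod2 (1.13) and Arrdc5 (1.10). Slc35a4, a member of the nucleotide sugar transporter family, stood at 5.15, 3.91 and 5.43 in low energy and 6.51, 7.23 and 5.45 in high energy at 60/20/20. B4galt1, a galactosyl transferase, stood at 7.49, 5.78 and 6.21 in low energy and 7.35, 7.62 and 7.07 in high energy. Prr5, a subunit of mTORC2, stood at 3.00, 2.43 and 2.66 in low energy and 4.19, 4.12 and 4.28 in high energy. Without the high energy 42/29/29 mouse 0 of these differences passed (all adjusted p = 0.834), and with the array interquartile range as a term E2f4 alone passed (adjusted p = 0.0342). The low energy mice at 42/29/29 and 23/38/38 both had Xist above the Y-linked genes, and with that difference as a term 2 genes passed, E2f4 (adjusted p = 0.00269) and Socs2 (adjusted p = 0.0433).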

How the results depend on the processing

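The count of 0 genes past the threshold at 60/20/20 held with the 6 mice alone, the filters, probe set means, the scalings, the variance priors, the terms, either sex chromosome pattern and all 3 compositions averaged. It was 12 with array weights and 27 without both low energy arrays of smallest interquartile range, where low energy replicate 1 alone was left and Cxcl14 (4.32), Hamp (-10.17) and Apoa5 (-1.77) were among the calls. Leaving out 1 mouse gave 0 to 5 calls: 1 without low energy replicate 2 (Dnaic2) and 5 without low energy replicate 3. At the other compositions the 17 calls became 7 after centring on array medians, 4 with equal array spread, 9 with the Y-linked minus Xist term and 0 with the array term, and 5 to 136 when 1 mouse was left out. The 13 differences between compositions became 3, 3, 2 and 1 under those settings, and 0 to 353 when 1 mouse was left out: 353 without high energy 23/38/38 replicate 3, 128 without low energy 60/20/20 replicate 1, 98 without the low energy 23/38/38 mouse, and 0 without the low or the high energy 42/29/29 mouse.

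Of 109 genes with values, 82 kept their sign under all alternatives run. With equal array spread the signs turned for Pck1 (0.82), Cat (0.53), Abcd3 (0.38), G6pc (0.38), Creb3l3 (0.34), Scd1 (0.34), Fasn (0.28), Cyp27a1 (0.25), Dgat2 (0.22), Srebf1 (0.18), Slc10a1 (0.16), Igf1 (0.13), Elovl5 (0.12), Cyp4f14 (0.084), Hnf4a (0.077) and Gpt2 (0.07). Without both low energy arrays of small interquartile range they turned for Cyp2b10 (-1.22), Fasn (0.62), Pdk4 (-0.32), Asns (0.27), Scd1 (0.17), Nqo1 (-0.15), Srebf1 (0.14) and Elovl5 (0.042). With the array term they turned for Fasn (0.37), Srebf1 (0.13), Pck1 (0.057), G6pc (0.043) and Igfbp2 (-0.033), and with both terms for Fasn (0.36), Srebf1 (0.10) and Pck1 (0.041). Pck1 turned with quantile normalization (0.043) and the Y-linked minus Xist term (0.0009), and Igfbp2 with array weights (-0.042). Leaving out 1 mouse, the differences ran from -0.21 to 0.94 for Arntl, -1.24 to 0.61 for Asns, -0.68 to 0.22 for Atoh8, -0.15 to 1.32 for Cdkn1a, -0.27 to 2.71 for Cyp2b9, -0.63 to 0.29 for Fasn, -1.02 to 0.10 for G6pc, -0.64 to 0.047 for Id1, -0.0037 to 0.51 for Igfbp2, -0.14 to 0.084 for Pck1, -0.39 to 1.08 for Pdk4, -0.33 to 0.039 for Srebf1 and -0.61 to 0.081 for Trib3. List medians moved by more than the spread between mice in 86 of 840 cases, and 39 of 42 medians moved at least once. Over probe sets with 1 symbol the array interquartile range differed by -0.32 (exact p = 0.2). The causes were not tested. No paired analysis was possible because the labels give the mice no shared replicate numbers.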

Other observations

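Stellate cell and endothelial markers lay mostly lower in low energy, as did 9160 of all 16926 genes. Of 16 stellate cell and fibrosis markers, 15 lay lower and 3 did so without overlap, against 7.25% of all genes. Their median was -0.27, or -0.17 after quantile normalisation and -0.05 with the array term. Desmin (Des), an intermediate filament of stellate cells, stood at 3.25, 3.30 and 3.40 in low energy and 4.07, 3.95 and 3.84 in high energy (difference -0.64, SE 0.30, adjusted p = 0.473). Of 11 endothelial markers, 8 lay lower and 2 did so without overlap, against 7.25% of all genes, and Stab1, a scavenger receptor of liver sinusoids, stood at 5.45, 5.42 and 5.88 in low energy and 6.41, 6.54 and 5.87 in high energy (difference -0.69, SE 0.30). The endothelial median was -0.15 as deposited, 0.00 with the array term, 0.06 with equal array spread and -0.26 without low energy replicate 1. Among markers of blood cells, 10 of 14 T, NK and B cell and 8 of 8 neutrophil markers were higher in low energy. So were 3 of 3 red blood cell and 3 of 5 plasma cell markers, and 7766 of all 16926 genes. Summed linear levels of plasma cell markers went the other way, 402 to 455 in low energy and 488 to 573 in high energy. T, NK and B cell markers summed to 83.6 to 107 in low energy and 91.5 to 116 in high energy. The T, NK and B cell median was 0.09, and the red blood cell median was 1.11, or 0.41 without low energy replicate 1.

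Urea cycle genes, which clear ammonia from protein, had a median of -0.14 over 8 genes as deposited. It was -0.15 after quantile normalisation, 0.48 with equal array spread and -0.03 without low energy replicate 1. Arginase (Arg1) stood at 11.43, 11.61 and 11.40 in low energy and 10.98, 11.03 and 11.39 in high energy, higher without overlap (difference 0.35, SE 0.21, adjusted p = 0.567). Ass1, argininosuccinate synthetase, overlapped (difference -1.09, SE 0.89). Oxidative phosphorylation genes had a median of 0.06 over 49 genes, or -0.11 with the array term, with 1 higher and 1 lower without overlap, against 5.61% and 7.25% of all genes. Without low energy replicate 1 the median was 0.18, with 11 higher and 1 lower without overlap, against 11.2% and 15.2% of all genes.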
